A study of Homo sapiens with 4 samples.

Results

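Probe sets of 8 genes for plasma proteins of the liver type were described on 4 arrays: the fibrinogen chains FGA, FGB and FGG, the carrier protein transthyretin (TTR), the serpins SERPINA1 and SERPINA3, angiotensinogen (AGT) and haptoglobin (HP). The rule took every probe set whose platform annotation gave 1 of these symbols and no other, which found 14 of 41091 single-gene probe sets and 8 of 19775 genes. The genes were chosen by their kind with their signals on these 4 arrays already known, so their levels are a description with no test. RNA came from NCI-H358, a human bronchioloalveolar carcinoma line, and A549, a human lung adenocarcinoma line. Each line had been stably transduced, under antibiotic selection, with a vector for CHST11, a Golgi sulfotransferase that acts on chondroitin, or with an empty vector, so the controls carried a vector and had passed selection too. The 4 groups were NCI-H358 CHST11, NCI-H358 empty vector, A549 CHST11 and A549 empty vector, with 1 array in each; the sources used here do not say whether the transduced cells were pools or clones.

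Hepatocytes make most of the proteins that circulate in plasma. Fibrinogen is a hexamer with a pair of each of its 3 chains, and thrombin turns it into fibrin, the mesh of a blood clot. The serpins of the group inhibit serine proteases, SERPINA1 mainly neutrophil elastase and SERPINA3 chymotrypsin-like enzymes such as cathepsin G. Transthyretin carries thyroxine and the retinol-binding protein, haptoglobin binds free haemoglobin, and angiotensinogen is the precursor of the angiotensins. In liver, these genes depend in part on factors of the C/EBP family, and fibrinogen, SERPINA3 and haptoglobin rise with interleukin 6 in the acute-phase response. Lung epithelial cells can also make fibrinogen and SERPINA1 in inflammation.

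The fibrinogen genes lie side by side in RefSeq's annotation of GRCh38.p14 on chromosome 4, where FGB spans 154562980 to 154572807, FGA 154583126 to 154590742 and FGG 154604136 to 154612656, a stretch of 49.7 kb. SERPINA1 (94376747 to 94390635) and SERPINA3 (94612391 to 94624053) share the serpin cluster of chromosome 14. TTR lies on chromosome 18 (31591877 to 31598821), AGT on chromosome 1 (230702523 to 230745583) and HP on chromosome 16 (72054505 to 72061055).

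The 3 fibrinogen genes were the members with the widest gap between the cell lines, so the 250 bases before their annotated starts are shown, from RefSeq on GRCh38.p14. The windows are chr4:154590743-154590992 on the minus strand for FGA, chr4:154562730-154562979 on the plus strand for FGB, at the more upstream of its 2 annotated starts, and chr4:154612657-154612906 on the minus strand for FGG. Each is written 5′ to 3′ along the gene, and capitals mark matches to 2 motifs on either strand: CTGGGA, the core of the interleukin 6 element known from fibrinogen promoters, and TTGCNNAA, a C/EBP core.
FGA: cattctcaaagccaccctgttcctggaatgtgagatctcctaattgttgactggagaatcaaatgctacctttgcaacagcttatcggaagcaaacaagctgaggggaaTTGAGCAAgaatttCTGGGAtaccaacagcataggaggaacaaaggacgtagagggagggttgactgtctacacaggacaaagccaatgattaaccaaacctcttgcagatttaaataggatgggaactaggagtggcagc
FGB: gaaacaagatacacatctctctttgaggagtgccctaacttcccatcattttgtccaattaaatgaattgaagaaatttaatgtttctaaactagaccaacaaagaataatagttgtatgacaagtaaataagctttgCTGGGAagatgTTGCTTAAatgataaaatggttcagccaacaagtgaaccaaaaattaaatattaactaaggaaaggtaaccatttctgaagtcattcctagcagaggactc
FGG: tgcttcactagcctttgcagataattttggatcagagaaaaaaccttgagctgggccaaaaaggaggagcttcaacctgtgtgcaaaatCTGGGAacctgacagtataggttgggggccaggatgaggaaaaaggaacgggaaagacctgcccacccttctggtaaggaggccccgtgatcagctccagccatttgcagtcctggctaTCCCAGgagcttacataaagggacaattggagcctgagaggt

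CTGGGA was in all 3 fibrinogen windows, once in FGA (-127 to -122) and FGB (-112 to -107) and 2 times in FGG (-161 to -156, and -42 to -37 as the reverse complement), but it was in 28.7% of the 35116 promoter windows of the same length in the table. The C/EBP core stood in FGA (-141 to -134, as the reverse complement) and FGB (-101 to -94), and in 9.05% of all windows.

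Of the other members with a window in the table, SERPINA1 had CTGGGA once, as the reverse complement, at the more downstream of its 2 annotated starts (-131 to -126) and neither motif at the upstream start. AGT had CTGGGA 2 times, and SERPINA3 had neither motif. TTR and HP were not searched. The motifs did not overlap each other, and binding of these factors was not measured.

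**Figure D1:**
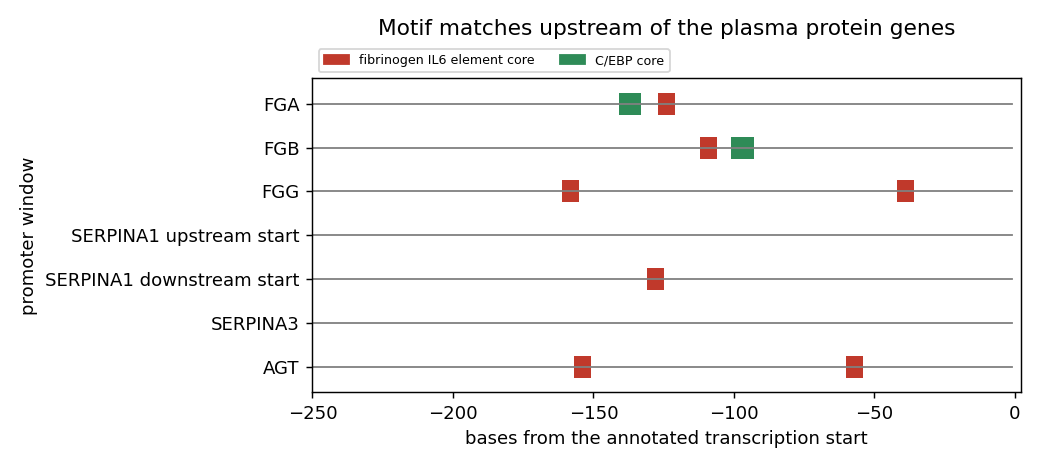
Matches to the interleukin 6 element core and the C/EBP core (coloured boxes) in the 250 bases before the annotated starts of FGA, FGB, FGG, SERPINA1 (2 starts), SERPINA3 and AGT, by distance from the start in bases. The C/EBP core is in the FGA and FGB windows, starting at -141 and -101, and FGG has none.

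Signals are linear MAS5 intensities. Signals under 16.1, the 50th percentile of all values, were raised to that floor before log2 was taken, since values so low have no order, and a gene was called measured in a line when 1 of its 2 arrays reached 27.0, the 60th percentile. Where a gene has several probe sets, the one with the highest mean log2 signal stood for it. With 1 array in each group there is no error across cultures and no p-value within a line. As a gauge of scatter, log2 ratios between the vectors differed among probe sets of a gene with an SD of 0.173 in NCI-H358 (5150 genes) and 0.158 in A549 (5117 genes), a gauge that leaves out variation from culture to culture. The median signals of the arrays ran from 15.9 to 16.3. CHST11 itself was 4.80-fold higher with its vector in NCI-H358 and 2.66-fold higher in A549 at the probe set that stood for it.

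Of the 8 genes, 1 (TTR) was measured in NCI-H358 and 5 (FGA, FGB, FGG, TTR and SERPINA3) in A549. SERPINA1, AGT and HP reached the filter on none of the 4 arrays. In whole-culture RNA, fewer cells of a type and less RNA per cell cannot be told apart.

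FGB, the fibrinogen beta chain, had signals of 7.61 with CHST11 and 6.43 with the empty vector in NCI-H358, against 393.2 with CHST11 and 539.3 with the empty vector in A549 (probe set 204988_at). Its other probe set, 216238_s_at, had 7.30 and 5.91 in the NCI-H358 cultures, in the same order of vectors, against 172.4 and 182.0 in the A549 cultures. Both NCI-H358 arrays were below the floor and both A549 arrays far above the filter at each probe set. Relative to the floor, FGB was at least 24.4-fold lower in NCI-H358 than in A549 with the CHST11 vector and at least 33.4-fold lower with the empty vector at the first probe set, and at least 10.7-fold and 11.3-fold lower at the second.

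FGG, the gamma chain, which carries a site for platelet binding, showed the same gap, with 8.25 and 8.89 in NCI-H358 with CHST11 and with the empty vector, against 316.0 and 342.5 in A549. This was at least 19.6-fold lower in NCI-H358 with the CHST11 vector and at least 21.2-fold lower with the empty vector. FGA, the alpha chain, from whose end thrombin releases a fibrinopeptide, had 9.18 and 8.89 in NCI-H358 against 165.9 and 159.4 in A549 at 205650_s_at, at least 10.3-fold and 9.87-fold lower in NCI-H358 with the CHST11 and the empty vector.

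The other FGA probe sets were dimmer. At 205649_s_at, signals were 5.90 with CHST11 and 4.37 with the empty vector in NCI-H358, against 31.4 with CHST11 and 48.97 with the empty vector in A549. The third, 231671_at, stayed below the floor on all 4 arrays, from 7.96 to 10.9. At 205650_s_at and 205649_s_at the lines were therefore apart, and at 231671_at there was no level to compare. Relative to the floor, 205649_s_at was at least 1.95-fold lower in NCI-H358 with the CHST11 vector and at least 3.03-fold lower with the empty vector. Its bound with the CHST11 vector was thus under 2-fold.

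SERPINA3, alpha-1-antichymotrypsin, had 19.9 and 21.4 in NCI-H358 with CHST11 and with the empty vector, against 41.2 and 45.3 in A549. The 2 lines did not overlap, and the signal was 2.07-fold lower in NCI-H358 with the CHST11 vector and 2.12-fold lower with the empty vector. Both NCI-H358 values lay between the floor and the filter.

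TTR was the member with the smallest gap between the lines among the 5 measured. Its signals were 33.8 with CHST11 and 43.4 with the empty vector in NCI-H358, against 27.5 with CHST11 and 36.4 with the empty vector in A549, so the ranges of the lines overlapped. On the log2 scale NCI-H358 was higher by 0.30 with the CHST11 vector and by 0.26 with the empty vector. All 4 values were dim, the lowest just above the filter.

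For SERPINA1, the 4 probe sets had signals from 4.51 to 13.02 over the NCI-H358 arrays and from 4.66 to 13.1 over the A549 arrays, all below the floor. HP had 8.75 and 10.6 in NCI-H358 with CHST11 and with the empty vector, against 8.84 and 10.6 in A549. AGT had 15.8 and 14.1 in NCI-H358, against 14.3 and 16.2 in A549, the last just above the floor. These genes were not detectable above the floor in a way that lets the lines be compared, and no fold is given for them.

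**Figure D2:**
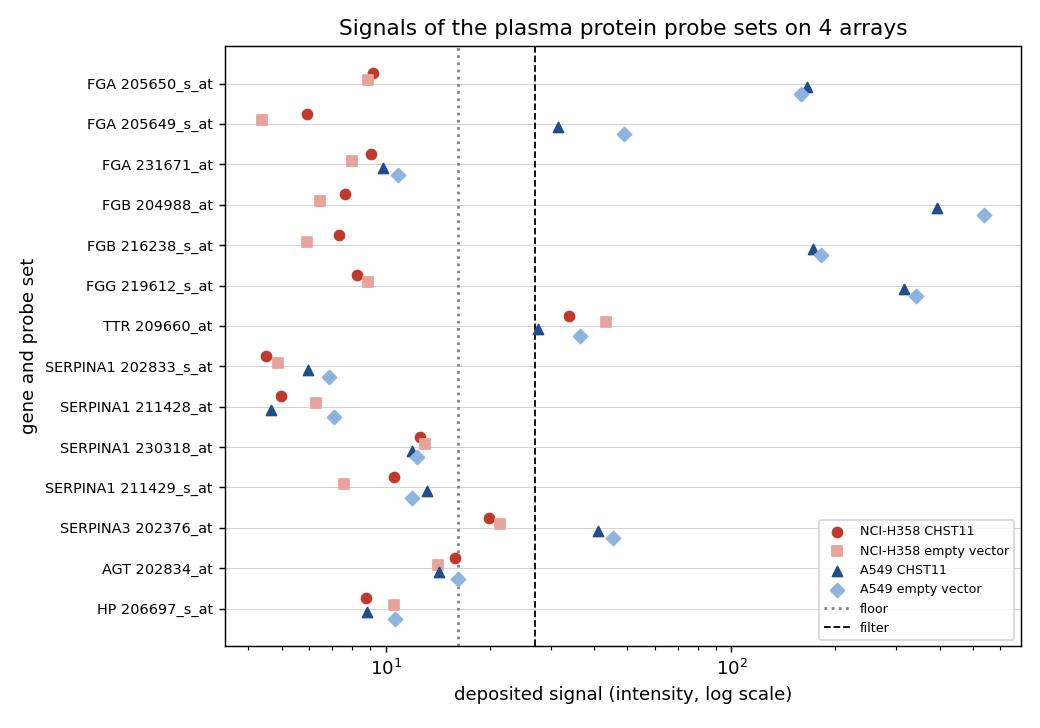
Deposited signal (horizontal, log scale) of the 14 single-gene probe sets of the 8 genes, 1 point per array and group, with the floor of 16.1 (dotted) and the filter of 27.0 (dashed). FGA, FGB and FGG stand right of the filter in A549 alone, except for 1 dim FGA probe set, while TTR lies just above the filter on all arrays and SERPINA1 and HP lie below the floor throughout.

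By the probe set that stood for each gene, 4 of the 8 members (FGA, FGB, FGG and SERPINA3) were at least 2-fold lower in NCI-H358 than in A549 with both vectors and 0 were at least 2-fold higher. Over all 12271 measured genes, 10.3% were lower by this rule and 10.6% were higher. The 3 fibrinogen genes were at least 8-fold lower with both vectors, as were 1.66% of all measured genes. Because the members were picked with these signals known, nothing is read from these counts.

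Likeness was taken as the smallest distance over the 4 arrays between floored log2 signals centred on each gene's mean. The genes most like FGA were PPFIBP2, TDRP and SLC66A3, with distances of 0.021 to 0.079. Those most like FGB were MYH10, HOXB7 and SLCO1B3, at 0.18 to 0.28, and those most like FGG were PNMA8A, EPB41L2 and EVL, at 0.022 to 0.096. MYH10, the gene nearest to FGB, had signals of 29.2 and 26.6 in NCI-H358 with CHST11 and with the empty vector, against 732.7 and 864.4 in A549. SLCO1B3, farther from FGB at 0.28, had 6.18 and 5.62 in NCI-H358 against 467.5 and 489.9 in A549. Both NCI-H358 values of FGA, FGG, PPFIBP2, TDRP, PNMA8A, EPB41L2 and EVL were raised to the floor. The distances among them thus rest on their A549 signals relative to the floor. For SERPINA3 the nearest were PFAS, NFIC and ZBTB4 and for TTR GPR137, GMEB1 and PPP1R14C. Patterns over 4 arrays of 2 lines are easily alike: 115 genes lay within a distance of 0.5 of FGA, 24 of FGB, 61 of FGG, 1537 of SERPINA3 and 3312 of TTR.

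Several other plasma proteins that the liver makes were also lower in NCI-H358 than in A549. Of 56 such genes, 47 had a single-gene probe set, 9 were measured in NCI-H358 and 18 in A549. Of the 18 measured in either line, 6 were at least 2-fold lower in NCI-H358 with both vectors and 0 were at least 2-fold higher. By the same rule 10.3% of all measured genes were lower and 10.6% were higher, the shares beside which the list counts below also stand. The median log2 difference, NCI-H358 minus A549, was -0.61 over the list and 0.03 over all measured genes. All 18 measured genes passed the filter in A549, and none was measured in NCI-H358 alone. This list was also written with earlier results of these arrays known, so nothing is read from its counts or median.

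The 6 genes were APOH, FGL1, IGFBP1, RBP4, APOC1 and ITIH2. APOH, a phospholipid-binding apolipoprotein, had 8.94 and 10.5 in NCI-H358 with CHST11 and with the empty vector, against 323.6 and 282.7 in A549. FGL1, a fibrinogen-like protein secreted by hepatocytes, had 16.2 and 24.4 in NCI-H358 against 367.3 and 325.8 in A549. RBP4, the retinol-binding protein that travels bound to transthyretin, had 9.26 and 9.10 in NCI-H358 against 155.4 and 133.8 in A549. In each of these 3 the lines were clearly apart, and for RBP4 this contrasts with the level of its partner TTR, whose lines overlapped.

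IGFBP1, a binding protein of insulin-like growth factors, had 19.4 and 12.4 in NCI-H358 with CHST11 and with the empty vector, against 292.7 and 306.6 in A549. APOC1, a small apolipoprotein, had 79.3 and 82.0 in NCI-H358 against 511.8 and 430.0 in A549, and was the one of the 6 measured in both lines. ITIH2, a heavy chain that is coupled to hyaluronan, had 9.01 and 11.2 in NCI-H358 against 63.3 and 49.985 in A549. APOE, another apolipoprotein, lay the other way, with 91.5 and 99.5 in NCI-H358 against 45.8 and 38.4 in A549, but missed the 2-fold size with the CHST11 vector. The complement proteins C3 and CFB were measured in both lines, with log2 differences between -0.28 and 0.82.

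Most hepatocyte markers were not measured. Of 9, 1 reached the filter in both lines, CYP3A4, with signals of 34.2 and 39.2 in NCI-H358 with CHST11 and with the empty vector and 39.6 and 44.0 in A549. Albumin (ALB) had 4.57 and 5.58 in NCI-H358 against 4.68 and 5.52 in A549, and APOA1, APOA2, AHSG, CYP2E1 and TAT were below the floor on all arrays as well. AMBP, the precursor of a plasma protease inhibitor, had 7.97 and 13.8 in NCI-H358 against 23.9 and 24.6 in A549, and ASGR1, a subunit of the asialoglycoprotein receptor, had 13.4 and 11.9 in NCI-H358 against 20.8 and 20.2 in A549, so both were above the floor in A549 alone and under the filter. In all, 8 of the 9 markers were below the floor on each NCI-H358 array and 6 on each A549 array. The summed signal of the 9 markers was 117.9 and 127.8 in NCI-H358 against 146.2 and 152.6 in A549. The fibrinogen genes were thus measured in A549, where albumin was below the floor.

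Of 9 measured lung epithelial markers, 3 were at least 2-fold higher in NCI-H358 with both vectors (NKX2-1, EPCAM and CDH1) and 3 were lower (ABCA3, KRT8 and KRT18). NKX2-1, the lung lineage factor, had 263.9 and 247.4 in NCI-H358 with CHST11 and with the empty vector, against 6.39 and 5.62 in A549, below the floor. The epithelial keratins KRT7, KRT8 and KRT18 were bright in both lines, at 1926 or above on each array. EPCAM, an epithelial surface protein, had 5599 and 4684 in NCI-H358 against 123.0 and 209.8 in A549. ABCA3, a lipid transporter of alveolar cells, had 37.8 and 18.6 in NCI-H358 against 115.6 and 108.3 in A549. The club cell product SCGB1A1 was not measured in either line, and SFTPB and SFTPC, surfactant proteins, stayed between 27.3 and 51.1 in all cultures. Markers of leukocytes, fibroblasts and endothelium counted 2, 1 and 1 above the filter on the NCI-H358 arrays, and at most 1 for each type on the A549 arrays. Whether cells of another type contributed to the members' signals was not tested.

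Of 5 genes next to the fibrinogen cluster, 1 was measured. PLRG1, a splicing factor, had 931.9 and 973.2 in NCI-H358 with CHST11 and with the empty vector, against 794.7 and 801.0 in A549, while DCHS2, LRAT, RBM46 and NPY2R were below the floor on all 4 arrays. Around SERPINA1 and SERPINA3, 2 of 9 genes with a probe set were measured, SERPINA9 and DICER1, and neither was 2-fold apart between the lines. SERPINA6, the corticosteroid-binding globulin, had 13.7 and 12.5 in NCI-H358 against 24.1 and 26.4 in A549, under the filter on every array. Of 9 measured serpins of other kinds, 3 were at least 2-fold lower in NCI-H358 (SERPINB9, SERPINI1 and SERPINB1) and 2 were higher (SERPINB5 and SERPINH1). SERPINB5, the epithelial serpin maspin, had 460.4 and 455.4 in NCI-H358 against 6.33 and 7.14 in A549.

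Genes of coagulation and fibrin handling were divided. Of 14 measured, 4 were at least 2-fold higher in NCI-H358 with both vectors and 4 were at least 2-fold lower, with a median log2 difference of -0.28. The higher genes were F3, PLAT, PLAU and PLAUR. F3, tissue factor, which starts coagulation, had 2427 and 2358 in NCI-H358 with CHST11 and with the empty vector, against 48.1 and 51.8 in A549. PLAT, the tissue plasminogen activator that leads to fibrin breakdown, had 216.0 and 219.9 in NCI-H358 against 11.5 and 10.4 in A549. PLAU, urokinase, had 1447 and 1623 in NCI-H358 against 316.5 and 318.4 in A549, and its receptor PLAUR had 949.3 and 1194 in NCI-H358 against 237.3 and 244.3 in A549.

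The genes lower in NCI-H358 were TFPI2, THBD, PROS1 and TGM2. TFPI2, an inhibitor of serine proteases, had 435.3 and 618.7 in NCI-H358 with CHST11 and with the empty vector, against 3815 and 4056 in A549. THBD, the thrombin receptor thrombomodulin, had 10.5 and 10.8 in NCI-H358 against 107.9 and 106.5 in A549. PROS1, the anticoagulant protein S, and TGM2, a transglutaminase, were 2.13-fold to 2.86-fold lower in NCI-H358. Tissue factor and both plasminogen activators were thus lower in A549, the line with the higher fibrinogen signals, although urokinase was well above the filter there.

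Among transcription factors known to act on liver genes, 18 of 24 had a single-gene probe set and 14 were measured, 3 at least 2-fold lower in NCI-H358 with both vectors and 3 higher. The lower ones were NR5A2, an orphan nuclear receptor (10.7 and 15.5 in NCI-H358 with CHST11 and with the empty vector, against 317.3 and 268.4 in A549), CEBPA (16.97 and 16.1 against 63.6 and 75.5) and FOXA2, a forkhead factor (93.3 and 92.9 against 230.5 and 203.1). The higher ones were FOXA1, GATA6 and CEBPD, at 2.02-fold to 4.27-fold. CEBPB, the C/EBP factor of the acute phase, had 2268 and 2327 in NCI-H358 and 2597 and 2402 in A549. FOXA3 had 5.51 and 7.14 in NCI-H358 against 51.0 and 28.3 in A549.

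For interleukin 6 and glucocorticoid acute-phase signalling, 23 of 25 genes had a single-gene probe set and 21 were measured. Of these, 4 were at least 2-fold higher and 1 was at least 2-fold lower in NCI-H358. The list also held the interleukin 1 receptor genes IL1R1 and IL1RAP. IL6 itself had 253.3 and 197.3 in NCI-H358 with CHST11 and with the empty vector, against 20.1 and 25.1 in A549. LIFR, a receptor of the same family, had 194.8 and 146.1 in NCI-H358 against 36.9 and 44.4 in A549. TSC22D3, a glucocorticoid-induced gene, and PIAS3, an inhibitor of STAT3, were also higher. IL1R1, the interleukin 1 receptor, was lower, at 56.5 and 59.1 in NCI-H358 against 223.2 and 209.1 in A549. The receptor IL6R was dim, at 16.002 and 11.8 in NCI-H358 against 31.96 and 28.7 in A549. STAT3, the factor it activates, had 256.4 and 254.3 in NCI-H358 against 496.9 and 523.3 in A549, and the feedback inhibitor SOCS3 had 127.4 and 123.2 in NCI-H358 against 64.5 and 54.1 in A549.

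Partners of the members that were not measured varied. HMOX1, the haem oxygenase that degrades the haem of haemoglobin bound by haptoglobin, had 78.0 and 81.8 in NCI-H358 with CHST11 and with the empty vector, against 1409 and 1236 in A549, and the biliverdin reductases BLVRA and BLVRB were also at least 2-fold lower in NCI-H358. SLC40A1 lay the other way, with 272 and 238 in NCI-H358 against 97.6 and 96.0 in A549. Of 10 measured genes of haptoglobin, haemoglobin and haem handling, 3 were thus lower by this rule and 1 was higher. Of 4 measured renin-angiotensin genes, ENPEP and MME, peptidases that cleave angiotensins, were at least 2-fold higher in NCI-H358, with ENPEP at 110.5 and 99.5 against 6.69 and 5.01 in A549. Of 24 measured genes of glycoprotein folding and export, 2 were at least 2-fold lower in NCI-H358, ERO1B, an oxidase of the endoplasmic reticulum, and SEC23A, a coat protein of export vesicles, and 0 were higher, with a median log2 difference of 0.07.

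**Figure D3:**
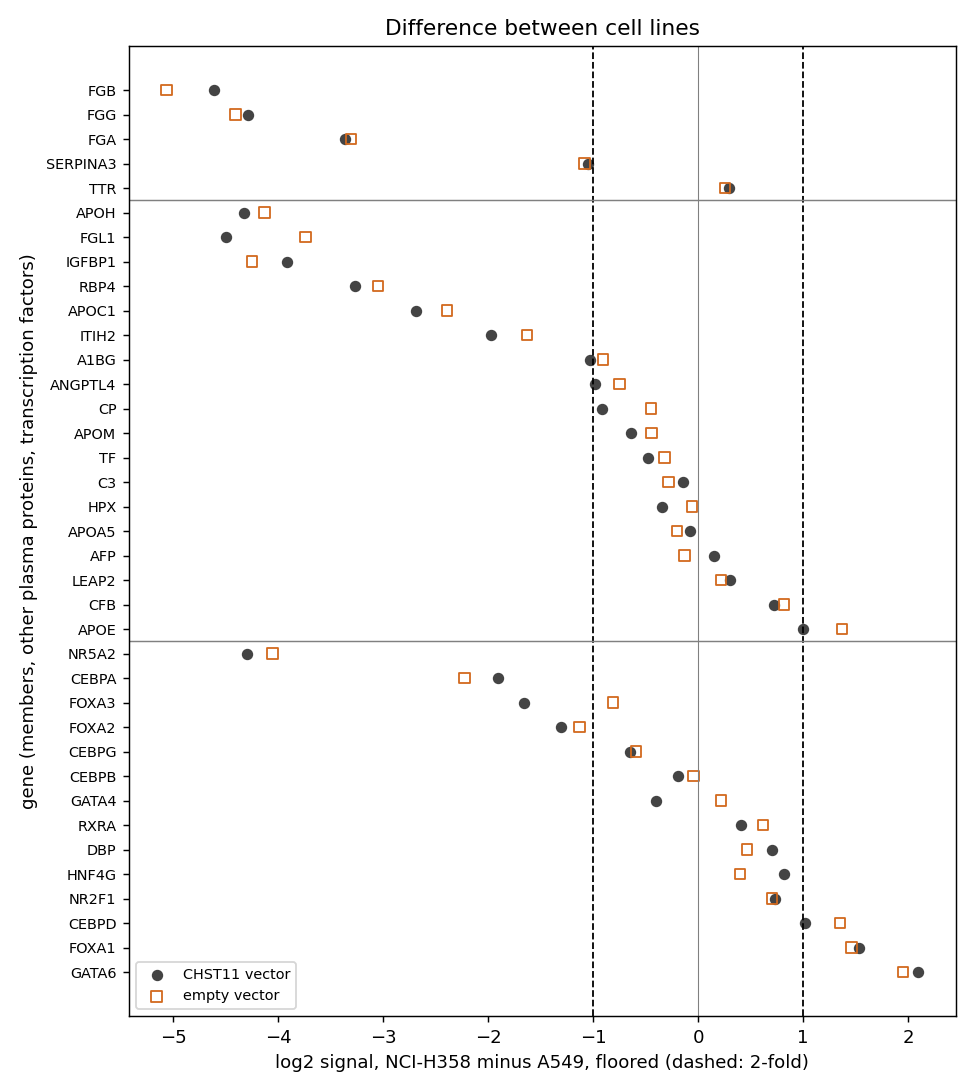
Log2 signal in NCI-H358 minus A549, with signals floored at 16.1, for the CHST11 vector (filled circles) and the empty vector (open squares), in 3 blocks from top to bottom: the 5 measured members, the 18 measured plasma proteins of the wider list and the 14 measured transcription factors. Dashed lines mark 2-fold, and floored values make the leftmost points bounds; FGB, FGG and FGA lie left of -3 with both vectors, as do APOH, FGL1, IGFBP1, RBP4 and NR5A2.

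The study's own question was what the CHST11 vector changes. For the fibrinogen genes and SERPINA3 the differences between vectors were smaller than those between lines, whereas for TTR, the member measured in both lines, they were larger. In A549, 0 of the 5 measured genes differed at least 1.5-fold by the probe set that stood for each, where 1.21% of 11448 measured genes did. In NCI-H358, 0 of 1 did, where 1.17% of 11395 did. In the A549 pair 4 of the 5 log2 ratios, CHST11 minus empty vector, were below 0, as were 45.3% of all measured genes, and their median was -0.14, against 0.01 over all.

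TTR had a log2 ratio of -0.36 in NCI-H358 and -0.40 in A549, and was 1.28-fold and 1.32-fold lower with CHST11. TTR has 1 probe set, its signals were dim, and the spread between cultures is not known. Among the 10572 genes measured in both lines, 0.35% were at least 1.2-fold lower in both, a size set after the TTR values were seen. In a limma fit over both lines its shared difference was -0.38 (SE 0.088), with a Benjamini-Hochberg adjusted p of 1. The same fit called 0 of 12271 genes at an adjusted p under 0.05, with 374 at an unadjusted p under 0.05, and limma with a mean-signal trend called 0, with 330. CHST11 itself, 4.80-fold and 2.66-fold higher with its vector in NCI-H358 and A549, was thus not called either. The count of 0 does not show that the vector changed no genes.

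The fibrinogen chains differed from one probe set to the next in A549. FGB had a log2 ratio of -0.46 at 204988_at but -0.08 at 216238_s_at. FGA had -0.64 at the dim 205649_s_at, a 1.56-fold lower signal with CHST11, but 0.06 at 205650_s_at, and FGG had -0.12 at its 1 probe set. A gap as wide as that of FGA, 0.70, was found in 0.94% of the 3084 genes with 2 measured probe sets in A549, and one as wide as that of FGB, 0.38, in 8.37%. With the median of probe sets FGA had -0.29 in A549, and its shared difference, which came from A549 alone, changed sign. Its direction between the vectors in A549 was thus not settled.

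SERPINA3 had -0.14 in A549, within the probe set SD of 0.158. In NCI-H358 fibrinogen signals lay below the floor with both vectors, so no response could be judged there, and the difference between lines in their response was not tested. The adjusted p of the limma fit was 1 for FGA, FGB, FGG and SERPINA3 too, which does not show that they did not differ. For FGA, FGB and FGG both NCI-H358 values were raised to the floor, so the fit took their NCI-H358 difference as 0. Their shared difference thus came from A549 alone, and the fit could not test a shared response for them.

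The pairs of arrays also differed at control probe sets that gauge RNA integrity and labelling, at GAPDH mainly in A549 and at ACTB in both lines. The ratio of the signal at the 3′ end to that at the 5′ end of GAPDH was 2.14 with CHST11 and 2.64 with the empty vector in A549, and 2.19 and 2.14 in NCI-H358 in the same order. For ACTB it was 2.14 and 2.40 in A549 and 2.32 and 2.06 in NCI-H358. The part of this in the ratios of FGA, FGB and TTR was not tested.

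**Figure D4:**
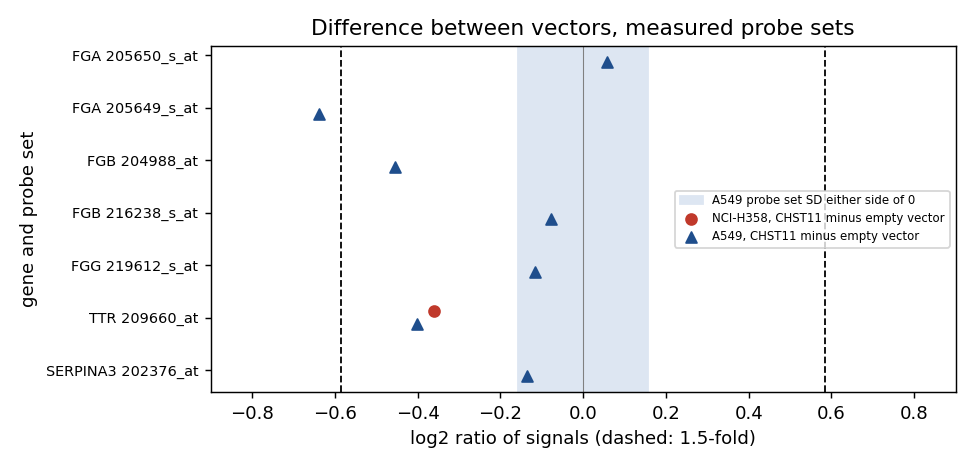
Log2 ratio of signals, CHST11 minus empty vector, at the 7 member probe sets measured in A549 (triangles) and the 1 measured in NCI-H358 (circle). The shaded band is the probe set SD of 0.158 either side of 0 and dashed lines mark 1.5-fold; 1 dim FGA probe set passes the line at -0.64, and the TTR points lie at -0.36 and -0.40.

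Outside the members, few measured genes of the protein, pathway and transcription factor lists differed at least 1.5-fold between the vectors. In A549 these were CP, ceruloplasmin, among the other plasma proteins (log2 1.003), FOXA3 (0.85) and GATA4 (0.71) among the transcription factors, and, lower, F5, coagulation factor V (-0.83, bounded by the floor), and SERPINB7 (-0.59). GATA4 was dim in A549, at 27.4 with CHST11, just above the filter, and 16.8 with the empty vector, just above the floor. In NCI-H358 SEC24D, a coat protein of export vesicles, had 0.75. The median ratio of the wider plasma protein list was -0.04 in NCI-H358 and 0.18 in A549, against 0.00 and 0.01 over all measured genes.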

How the data were processed

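RNA of 4 cultures, 1 for each group in the sample labels, was measured on Affymetrix 1-colour arrays with 54675 probe sets. The deposited intensities were made by the authors with MAS5, per the submitters' processing notes; no source used here states its version, its scaling or any detection call. The values are linear, from 2.46 to 15499, and were used as deposited. The platform annotation gave 1 gene for 41091 probe sets; 41037 of them matched RefSeq by Entrez ID, and 0 symbols changed. Values were floored at 16.1, log2 was taken and genes were filtered at 27.0.

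Between vectors and between lines, genes were counted by size. The shared vector difference was estimated by the moderated test of limma 3.58.1 (R 4.3.3) in a model with a vector term and a line term, and p-values were adjusted by Benjamini-Hochberg with a threshold of 0.05. The fit had 1 residual degree of freedom per gene. Alternatives were 3 normalizations, 2 floors, 2 filters, the median of probe sets and a trend. Members and lists were chosen with earlier results of these data known. The rule for named genes took all members, the list genes past these sizes, at most 4 a direction, the highest and lowest by signal, factors and markers fixed by name, and the 3 nearest genes of each measured member; the text prints part of these. Promoter sequences came from RefSeq on GRCh38.p14. Tables and plots used Python 3.11.15, pandas 2.3.3 and matplotlib 3.10.9. The number of arrays limits the precision.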

Additional observations from a re-analysis of the deposited data

Results flagged for a closer look

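EPCAM had a log2 ratio, CHST11 minus empty vector, of 0.26 in NCI-H358 and -0.77 in A549. It was singled out among the listed genes because the signs of the 2 ratios are opposite. Both ratios also passed the probe set SD of their line, and that in A549 was at least 1.5-fold. With 1 culture for each group the spread between cultures is not known, and the difference between the lines was not tested.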

How the results depend on the processing

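The counts of members at least 1.5-fold apart between vectors stayed at 0 in both lines, and limma called 0 genes for the shared vector difference, under quantile normalization, median centring, cyclic loess normalization, other floors, other filters and the median of probe sets, and also with a trend for limma. CHST11 was among the genes that limma did not call. Members at least 2-fold apart between the lines numbered 4; a filter at the 75th percentile left 3, since SERPINA3 was no longer measured. The shared difference of FGA was 0.03, and -0.15 with the median of probe sets, which takes in its dim probe set. In both settings the NCI-H358 values of FGA were raised to the floor, so this difference came from A549 alone. The A549 ratio of FGB ran from -0.46 to -0.27 over these settings and that of TTR from -0.43 to -0.38. The TTR ratio in NCI-H358 ran from -0.37 to -0.33. At the stricter filter TTR was not measured either, so in NCI-H358 no member was left to count and the 0 there was fixed. In the main setting TTR was the only member measured in NCI-H358. The limma fit already pairs the vectors by cell line. No paired analysis was possible beyond it, by replicate number, because each group holds 1 array and the labels give no replicate numbers. Leaving out an array would leave the fit no residual degree of freedom. Dim signals near the floor limit TTR, SERPINA3 and the second FGA probe set.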
